A study of Caenorhabditis elegans with 8 samples.

Results

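The genes described here are 8 genes of the germline small RNA pathways of Caenorhabditis elegans, taken by name from a table whose 12240 gene IDs each had at least 1 read. The list was not set by their values, but it was chosen with earlier results of these data known. They comprise the Argonautes hrde-1, csr-1, prg-1 and wago-1, the RNA-dependent RNA polymerases ego-1 and rrf-1, the helicase gene drh-3 and the exonuclease gene mut-7. The study used iCLIP, in which ultraviolet light fixes RNA to the protein it touches, the protein is purified and the attached RNA fragments are sequenced. FOG-3, a germline protein needed for germ cells to become sperm, was the purified protein. The FOG-3 group comprised 4 libraries from fourth-stage (L4) larvae that carried FLAG-tagged FOG-3, integrated in a single copy, purified with the antibody against the tag. The no-antibody control group comprised 4 libraries from worms of the same kind, with the same tagged protein, in which that antibody was left out. The worms were whole animals grown on plates, so every library could hold RNA of somatic tissues as well as of the germline. Symbols were paired with gene IDs by the list that names these genes. In RefSeq's gene table (WBcel235) hrde-1 and mut-7 lie on chromosome III, csr-1 on IV and the other 5 on I, and no coordinates are given because the authors' build is not known here. Germline and somatic marker genes could not be matched to the gene IDs of the table and were not analysed here.

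Germline small RNA pathways silence transposons and foreign sequences, and mark the germline's own transcripts, by means of Argonaute proteins loaded with short guide RNAs. PRG-1 binds the piRNAs that scan germline transcripts. Target recognition leads RNA-dependent RNA polymerases, with the helicase DRH-3, to copy the target into secondary small RNAs. These are loaded onto Argonautes such as WAGO-1 and HRDE-1, while CSR-1 carries small RNAs against most germline-expressed genes. The messenger RNAs of these proteins, not the small RNAs they handle, are what was counted here.

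The FOG-3 libraries held 80529 gene-assigned reads with tag CGGA, 97054 with GGCA, 76790 with GGTT and 186739 with TGGC. The controls held 30631 reads with tag AATA, 18676 with CCGG, 14964 with TTAA and 74892 with TTGT. Values per library are given below in this order. CPM are read counts scaled to library size and by TMM, a method that sets most genes equal between libraries. For CPM, floors, expected reads and pooled folds, TMM used the gene IDs that passed a filter on low counts, unless stated otherwise. Fits without that filter used TMM over all gene IDs, which is a different scale. For floors, 3 reads are taken as the most that a count of 0 allows, lower than the exact limits for 0 reads given for hrde-1. With TMM over the filtered gene IDs, floors amount to 10.8 to 25.3 CPM in FOG-3 libraries and 55.9 to 338 CPM in controls. All intervals and floors cover counting error only. No total RNA library was analysed, so a transcript's abundance in the worms and its recovery with FOG-3 cannot be told apart.

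The 8 genes together were recovered with FOG-3 above the control level, and most of their reads came from hrde-1, csr-1 and prg-1. They had 76, 124, 84 and 242 reads in the FOG-3 libraries, against 1, 1, 1 and 10 reads in the controls. Every FOG-3 library lay above every control in their share of gene-assigned reads. This share averaged 0.115% ± 0.017 with FOG-3, against 0.0072% ± 0.0044 without antibody (SD, n = 4 each), which is 16.1 times as much. When the totals omitted the 10 most abundant gene IDs, it averaged 0.197% ± 0.016 with FOG-3, against 0.031% ± 0.014 without antibody, which is 6.42 times as much. The gene hrde-1 supplied 47.9% of the 526 FOG-3 reads (95% Clopper-Pearson interval 43.6% to 52.3%), a share that also depends on transcript length. Of the 13 control reads, 10 came from TTGT, the deepest control, so the shares of AATA, CCGG and TTAA rest on 1 read each. Most gene IDs were also higher in FOG-3 under total counts. Their median log2 fold change was 1.94 over the 886 that passed the filter on low counts and 1.43 without the filter. Whether the share of the 8 genes differed more than that of other gene IDs was not tested.

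Read depth decided which of the genes could be tested. Only hrde-1 and csr-1 passed the default filter of edgeR on low counts, which left 886 gene IDs. Both passed only through their reads in FOG-3 libraries, so their calls as higher in that fit (Benjamini-Hochberg adjusted p under 0.05), where 45.3% of all gene IDs were called higher and 27.5% lower, are given as values and not as support. A fit without the filter covered all 8 genes. It called 5 of them higher (hrde-1, csr-1, prg-1, rrf-1 and mut-7) and 0 lower, where 7.75% of 12240 gene IDs were called higher and 1.08% lower. At an unadjusted p under 0.05 the same edgeR fit added wago-1 to those higher, where 14.7% of all gene IDs were higher, and 0 of the 8 were lower. DESeq2 and limma-voom without the filter each called 3 of the 8 higher (hrde-1, csr-1 and prg-1) and 0 lower. DESeq2 called 10.1% of all gene IDs higher and 0.776% lower, and gave no adjusted p for wago-1, ego-1 and drh-3. The calls of limma-voom lay on a different background, with 9.03% of all gene IDs higher and 46.8% lower. Each of the 8 had 10 or more reads in total, and of the 4505 gene IDs that did, 21.0% were called higher without the filter. The count of 5 was not stable. It was 2 without FOG-3 library TGGC, 2 without control AATA, and 3 without FOG-3 library GGCA or any 1 of the controls CCGG (3), TTAA (3) and TTGT (3). Leaving out CGGA (5) or GGTT (5) kept it, and hrde-1 and csr-1 were called in all 8 of these fits. Over all gene IDs these fits called 704 to 988 higher, of 10616 to 12223 tested.

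**Figure D1:**
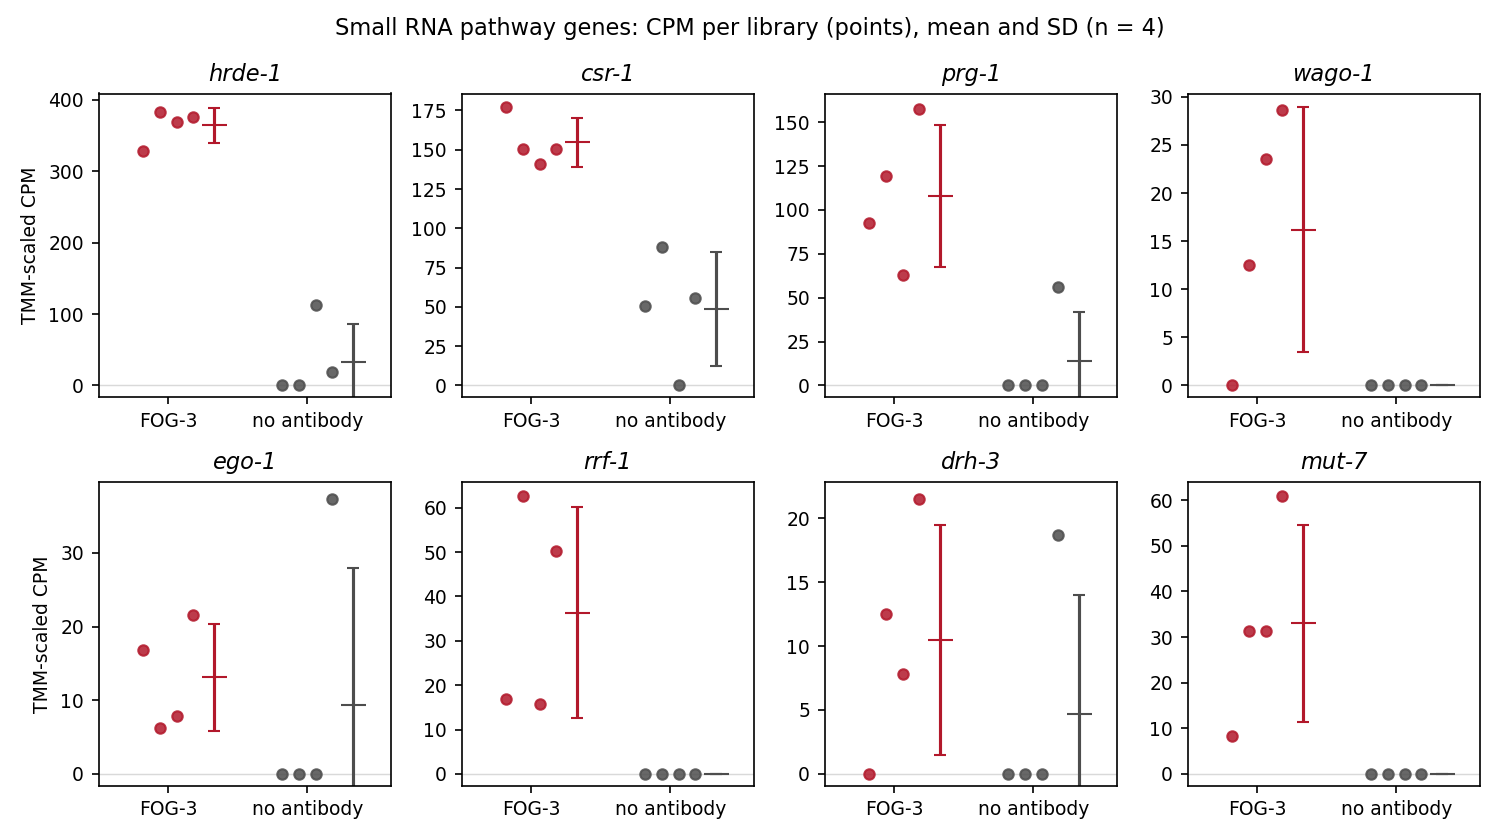
TMM-scaled CPM (vertical axis, linear, a separate range for each gene) of the 8 genes in the 4 FOG-3 libraries (left, red) and the 4 no-antibody controls (right, grey). Points are libraries, bars give the mean and SD; FOG-3 libraries lie above all controls for hrde-1, csr-1, prg-1, rrf-1 and mut-7, and overlap them for wago-1, ego-1 and drh-3.

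The gene hrde-1 (WBGene00007624) encodes the nuclear Argonaute that carries inherited silencing into following generations. It had 39, 61, 47 and 105 reads in the FOG-3 libraries, against 0, 0, 1 and 1 in the controls. These counts amount to 329, 382, 369 and 376 CPM with FOG-3, against 0, 0, 113 and 18.6 CPM in the controls. The FOG-3 values lay close together and well above the highest control, whose 113 CPM rests on 1 read in the shallowest library. The mean was 364 ± 24 CPM with FOG-3, against 33 ± 54 CPM without antibody (SD, n = 4 each). The edgeR fit without the filter gave a log2 fold change of 4.59 with a SE of 0.63 and an adjusted p of 8.8e-11, where the median of all gene IDs was 1.15. With the filter the values were 4.01, 0.66 and 6.6e-09. It was called higher in all 15 alternatives to the fit without the filter, with log2 fold changes from 3.65 to 5.83 and adjusted p from 6.2e-24 to 2.8e-06. All 4 FOG-3 values exceeded the exact upper 95% limits of 187 and 325 CPM for 0 reads in AATA and CCGG. They also exceeded that of 104 CPM for the 1 read in TTGT. The lowest FOG-3 value, 329 CPM, lay close to the limit in CCGG. The 1 read in TTAA allows up to 627 CPM, above all FOG-3 values, so that TTAA on its own shows no difference.

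The gene csr-1 (WBGene00017641) encodes an Argonaute with small RNAs against most germline-expressed genes, which is required for fertility. It had 21, 24, 18 and 42 reads in the FOG-3 libraries, against 1, 1, 0 and 3 in the controls. In CPM this was 177, 150, 141 and 151 with FOG-3, against 50.7, 88.1, 0 and 55.9 in the controls, so that the groups did not overlap. The mean was 155 ± 15 CPM with FOG-3, against 49 ± 36 CPM without antibody (SD, n = 4 each). Without the filter, edgeR gave csr-1 a log2 fold change of 2.10 with a SE of 0.59 and an adjusted p of 0.0064. With the filter the values were 1.5, 0.59 and 0.016. Its difference from hrde-1 in fold change was not tested. Of the 15 alternatives to the fit without the filter, 14 called it higher, with log2 fold changes from 1.73 to 3.41 over all 15. The exception was thinning to equal depth, with an adjusted p of 0.19. In the gene table of RefSeq the span of csr-1 overlaps that of frpr-10, and how reads in such overlaps were assigned is not given in the sources used here.

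Within a library, the ratio of hrde-1 to csr-1 reads does not depend on scaling, though it depends on transcript length. It was 1.86, 2.54, 2.61 and 2.50 in the FOG-3 libraries. In the controls, hrde-1 had 2 reads and csr-1 5 reads in all. Of the reads of the pair, hrde-1 made up 70.6% of 357 in FOG-3 libraries (95% Clopper-Pearson interval 65.6% to 75.3%) and 28.6% of 7 in controls (3.67% to 71.0%). These intervals overlap, but overlap is not a test of the difference, and a difference in this ratio was not tested. The control share rests on 7 reads only.

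The gene prg-1 (WBGene00004178) encodes the Argonaute of piRNAs. It had 11, 19, 8 and 44 reads in the FOG-3 libraries, against 0, 0, 0 and 3 in the controls. This corresponds to 92.7, 119.1, 62.7 and 158 CPM in FOG-3 libraries and to 55.9 CPM in control TTGT. The groups did not overlap, but the lowest FOG-3 library, GGTT, lay close to TTGT, the deepest control. The edgeR fit without the filter gave a log2 fold change of 2.39 with a SE of 0.70 and an adjusted p of 0.0099. The adjusted p was 0.059 without FOG-3 library TGGC and 0.077 without control AATA. Without control TTGT, which held all of its control reads, the fitted log2 fold change was 6.69. The span of prg-1 overlaps that of D2030.12 in RefSeq's gene table, and reads shared with its close relative prg-2 may have been split or dropped.

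The gene wago-1 (WBGene00011061) encodes an Argonaute of secondary small RNAs that acts in silencing in the cytoplasm. It had 0, 2, 3 and 8 reads in the FOG-3 libraries, against 0 in every control. Its FOG-3 values of 0, 12.5, 23.5 and 28.7 CPM all lay below the 55.9 CPM that a count of 0 allows in the deepest control. The fit without the filter gave an edgeR adjusted p of 0.29, and an exact permutation test of its CPM gave p = 0.14 (two-sided). Of 14 alternative fits without the filter, 1 called it higher, that with the most abundant gene ID as the scale (edgeR adjusted p = 0.020). Under TMM the difference was not detectable at this depth. Its relative wago-2 is similar in sequence, so these few reads are also uncertain in their assignment.

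The polymerase genes rrf-1 (WBGene00004508) and ego-1 (WBGene00001214) are next to each other on the chromosome and gave different counts. EGO-1 is required for germline development and makes small RNAs there, and RRF-1 acts in the soma and, alongside EGO-1, in the germline. The gene rrf-1 had 2, 10, 2 and 14 reads in the FOG-3 libraries, against 0 in every control. Its FOG-3 libraries split into a pair at 15.7 and 16.9 CPM and a pair at 50.2 and 62.7 CPM. With 3 reads set for the whole control group, the pooled ratio of FOG-3 to controls was 1.28 under TMM and 2.94 under total counts. This ratio leaves out counting error in the FOG-3 reads. The exact 95% counting interval reached down to 0.97 under TMM, 1.46 with TMM over all gene IDs and 2.24 under total counts. The fit without the filter gave an edgeR adjusted p of 0.039, which was above 0.05 in 6 of the 8 fits that left out a library, all but those without CGGA (0.026) and GGTT (0.022), with a highest value of 0.19 without TTGT.

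The gene ego-1 had 2, 1, 1 and 6 reads in the FOG-3 libraries, against 0, 0, 0 and 2 in the controls. Its FOG-3 values of 6.27 to 21.5 CPM lay below the 37.3 CPM of control TTGT, so that the groups overlapped. The pooled ratio of FOG-3 to controls was 0.68 under TMM (95% counting interval 0.15 to 6.42) and 1.58 under total counts (0.34 to 14.8). With TMM over all gene IDs it was 1.03 (0.22 to 9.68). The direction for ego-1 thus changed with scaling, and the edgeR adjusted p without the filter was 0.98. The difference between rrf-1 and ego-1 was not tested.

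The gene drh-3 (WBGene00008400) encodes a Dicer-related helicase that works with the polymerases in making secondary small RNAs. It had 0, 2, 1 and 6 reads in the FOG-3 libraries, against 0, 0, 0 and 1 in the controls. The groups overlapped at 0 to 21.5 CPM in FOG-3 libraries and 0 to 18.6 CPM in controls. The pooled ratio was 1.23 under TMM (95% counting interval 0.17 to 53.9) and 1.86 with TMM over all gene IDs (0.26 to 81.3). The edgeR adjusted p without the filter was 0.66. Another gene ID (1) had the same counts as drh-3 in all 8 libraries, and whether they share reads was not tested.

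The gene mut-7 (WBGene00003504) encodes an exonuclease of the mutator complex, which is required for transposon silencing and for secondary small RNAs. It had 1, 5, 4 and 17 reads in the FOG-3 libraries, against 0 in every control. In CPM this was 8.43, 31.3, 31.4 and 60.9 in FOG-3 libraries, and 63.0% of these reads came from TGGC, which held 42.3% of the reads of its group. With 3 reads set for the control group, the pooled ratio of FOG-3 to controls was 1.23 under TMM and 2.84 under total counts. As for rrf-1, this ratio leaves out counting error in the FOG-3 reads. The counting interval reached down to 0.93 under TMM and 2.15 under total counts. The fit without the filter gave an edgeR adjusted p of 0.048. It was above 0.05 in 6 of the 8 fits that left out a library, and 0.15 without TGGC.

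The CPM of every FOG-3 library exceeded that of every control for 5 of the 8 genes, where 14.3% of all gene IDs, and 33.2% of the 4505 with 10 reads or more in total, had this pattern. For these 5 genes an exact two-sided permutation test of the CPM gave p = 0.029, the smallest value that 70 splits of 8 libraries allow. The absence of overlap fixes this value, so it only restates how the 5 genes were picked. The same exact test gave p = 0.14 for wago-1, p = 0.37 for drh-3 and p = 0.74 for ego-1. For rrf-1 and mut-7, with no control read, the absence of overlap only restates that each FOG-3 library had a read. For each of them 3 of the 4 FOG-3 values lay below the floor of 55.9 CPM for a count of 0 in TTGT. All 4 lay below the exact upper limit of 68.8 CPM for 0 reads in TTGT, the kind of limit given for hrde-1.

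A pair of libraries had nearly equal totals, so that their raw counts can be set side by side as under total-count scaling. FOG-3 library GGTT had 76790 gene-assigned reads and control TTGT had 74892. Their TMM-scaled library sizes were 127541 for GGTT and 53651 for TTGT, so on the TMM scale the pair is not matched. In GGTT hrde-1 had 47 reads, against 1 in TTGT. For csr-1 the counts were 18 in GGTT and 3 in TTGT, and for prg-1 they were 8 in GGTT and 3 in TTGT. GGTT had 4 reads of mut-7, 3 of wago-1 and 2 of rrf-1, and TTGT had 0 of each. For drh-3 the counts were 1 in GGTT and 1 in TTGT, and for ego-1 they were 1 in GGTT and 2 in TTGT. All 8 genes together had 84 reads in GGTT and 10 in TTGT. With 1 library on each side these counts have no replicate check.

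The reads that the controls would hold at the FOG-3 level show how much each control count can tell. For hrde-1 the FOG-3 level corresponds to 34.4 control reads under TMM and 79.5 under total counts, where 2 were observed. For csr-1 it corresponds to 14.4 and 33.1 reads under these scalings, where 5 were observed, and for prg-1 to 11.2 and 25.9, where 3 were observed. The gene rrf-1 would have 3.83 and 8.83 reads and mut-7 3.69 and 8.52, where 0 were observed for each. For wago-1, drh-3 and ego-1 the TMM level corresponds to 1.78, 1.23 and 1.37 control reads, fewer than the 3 reads that a count of 0 allows. Under total counts it corresponds to 4.10, 2.84 and 3.15 reads, close to that limit, where 0, 1 and 2 were observed. Under TMM and total counts none (0) of these 3 genes was called without the filter.

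**Figure D2:**
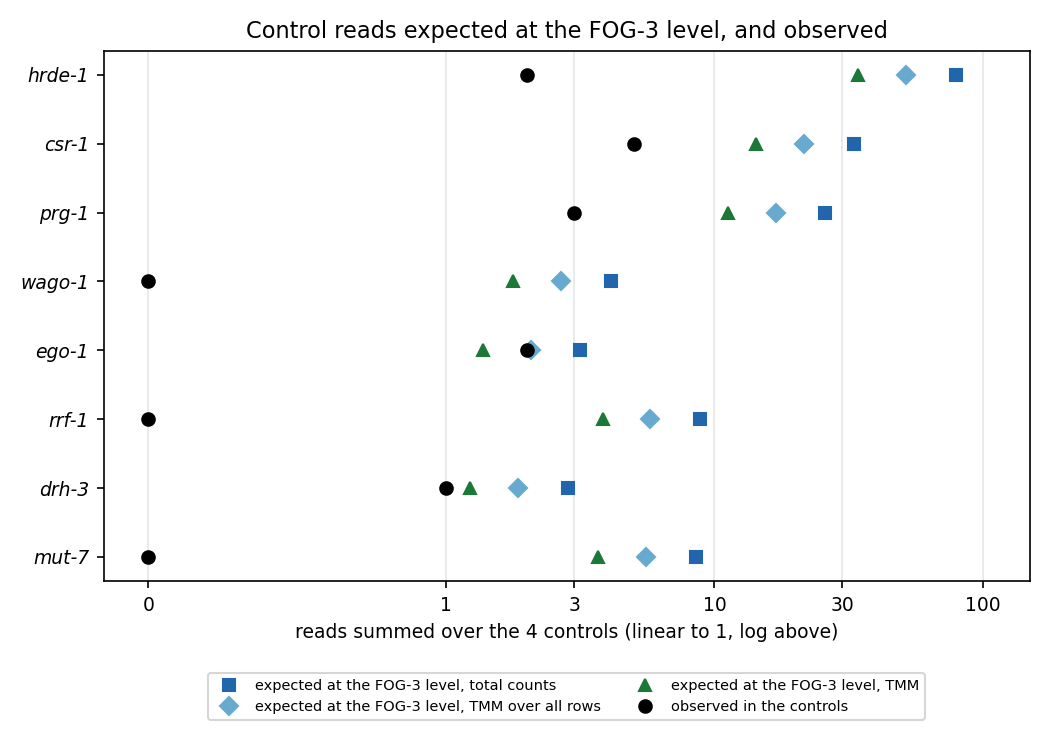
Reads summed over the 4 controls (horizontal axis, linear to 1 and logarithmic above) for each of the 8 genes: observed (black circles), and expected at the gene's FOG-3 level under total counts (squares), TMM over all gene IDs (diamonds) and TMM over the gene IDs that passed the filter (triangles). For hrde-1, 2 reads were observed and 34.4 to 79.5 expected, and for ego-1 the observed 2 lies among the expected values.

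The size of every difference moved with the scaling. The median log2 fold change of all 886 gene IDs tested was 0.74 under TMM, 1.94 under total counts and 2.68 with the most abundant gene ID as the scale. Without the filter these medians were 1.15, 1.43 and 1.99, where hrde-1 had log2 fold changes of 4.59, 5.15 and 5.83 and csr-1 of 2.10, 2.69 and 3.41. TMM gave the smallest folds of the 6 scalings compared, and the most abundant gene ID as the scale gave the largest. The pooled fold of hrde-1 was 17.2 under TMM (95% counting interval 4.72 to 143), 39.8 under total counts and 67.7 with the most abundant gene ID as the scale. For csr-1 it was 2.87 under TMM (1.19 to 9.02), 6.63 under total counts and 11.3 with the most abundant gene ID as the scale. For prg-1 it was 3.74 under TMM (1.23 to 18.5), 8.62 and 14.7 under the same scalings. The intervals of these 3 genes lay above 1 under all 6 scalings. Those of ego-1 and drh-3 included 1 under all 6.

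**Figure D3:**
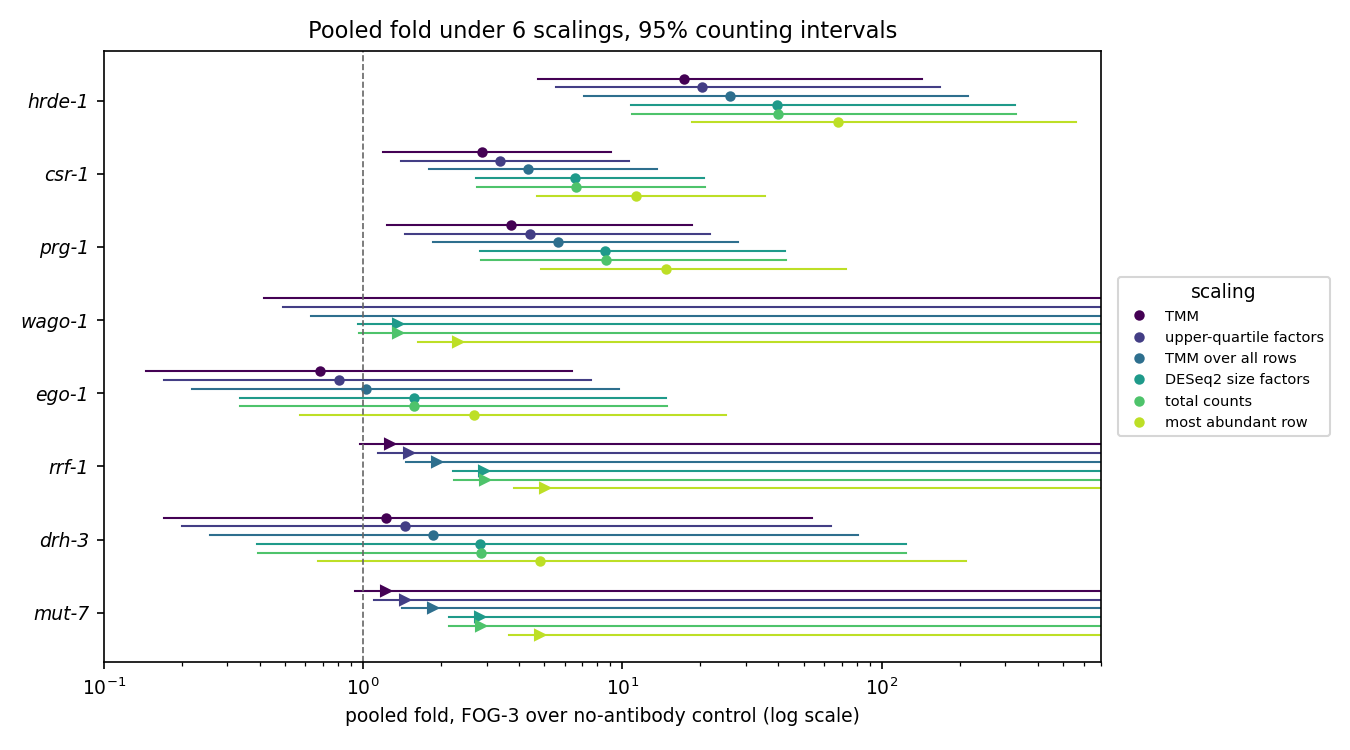
Pooled fold of FOG-3 over no-antibody controls (horizontal axis, logarithmic) for the 8 genes under 6 scalings (colours). Circles are pooled folds and lines their 95% counting intervals. Triangles, for genes with no control read, are folds with 3 reads set for the controls, drawn where that fold is at least 1. The intervals of these genes have no upper end. The dashed line marks equal levels, which the lines of hrde-1, csr-1 and prg-1 do not reach under any scaling shown.

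The spread among FOG-3 libraries is given against that of counting error, without a test. The coefficient of variation of CPM was 6.65% for hrde-1 and 9.97% for csr-1, below the 13.3% and 20.6% that counting error alone would give on average. It was 37.3% for prg-1, 65.3% for rrf-1 and 65.2% for mut-7, above the 23.5%, 39.8% and 41.0% of counting error. For the genes of fewest reads it was 78.6% for wago-1 and 85.9% for drh-3, above 59.1% and 70.4%, and 55.5% for ego-1, below 68.2%. TGGC, the deepest FOG-3 library, held 53.7% to 66.7% of the FOG-3 reads of prg-1, wago-1, ego-1, drh-3 and mut-7, 14 of the 28 reads of rrf-1, 42 of the 105 of csr-1 and 41.7% of those of hrde-1.

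**Figure D4:**
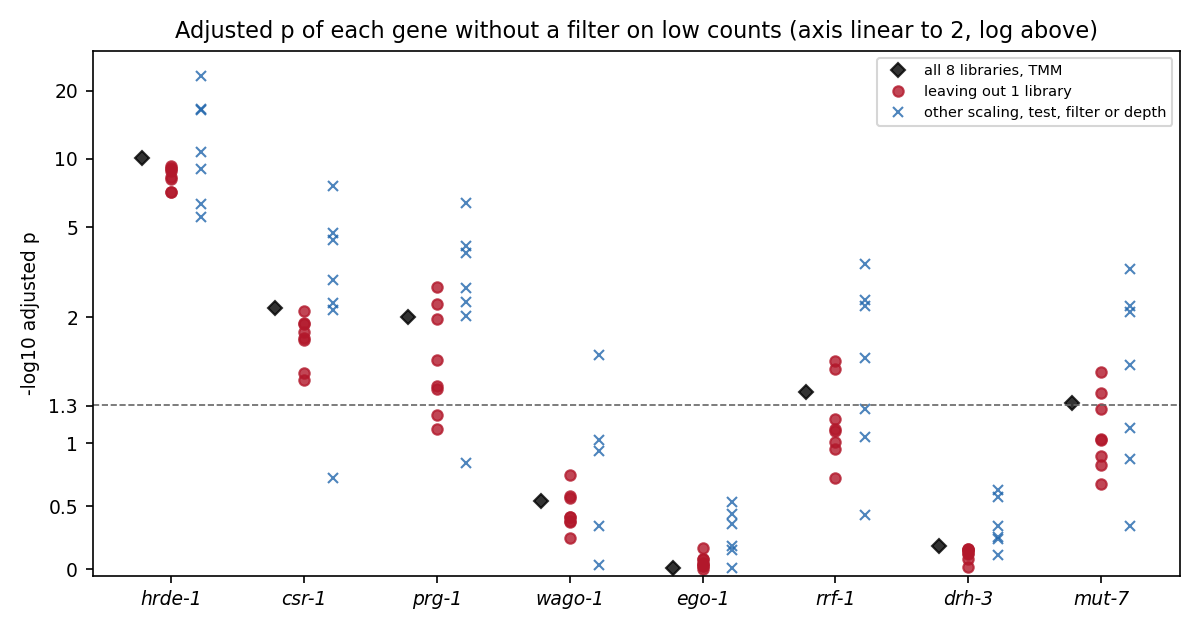
Adjusted p of each of the 8 genes in fits without a filter on low counts, as −log10 (vertical axis, linear to 2 and logarithmic above), for the fit on all 8 libraries with TMM (diamonds), fits that left out 1 library (circles), and fits with another scaling, test, minimum level or depth (crosses). The dashed line is an adjusted p of 0.05. All symbols of hrde-1 lie above it, and those of ego-1 and drh-3 lie below. Those of csr-1, prg-1, wago-1, rrf-1 and mut-7 lie on both sides. For csr-1 only the thinned fit lies below, and for wago-1 only 1 fit lies above.

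The 2 other tested gene IDs whose pattern over the 8 libraries was most like that of hrde-1 were WBGene00002363 and WBGene00002889, with Pearson correlations of log2(CPM + 50) of 0.99 and 0.99. The 8 points fall into the separate groups of FOG-3 and control libraries, so these values mainly restate that the gene IDs were high in FOG-3. WBGene00002363 had 35, 52, 47 and 108 reads in the FOG-3 libraries, against 0, 0, 1 and 2 in the controls. WBGene00002889 had 55, 81, 46 and 115 reads in the FOG-3 libraries, against 0, 0, 1 and 3 in the controls.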

How the data were processed

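The authors deposited raw read counts per gene ID, 1 column per library. STAR 2.4.2 and HTSeq are named per the submitters' processing notes. The sources used here do not give the build, annotation, strand setting, or handling of multi-mapping reads and PCR copies. Column names give the group and a tag but no replicate number. The 2 rows that name no gene (means of 11.5% and 0.648% of reads in FOG-3, 3.70% and 0.380% in controls) were left out.

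Counts were tested across all genes by edgeR's quasi-likelihood test (version 4.0.16, R 4.3.3, with group as the only term, TMM, minimum count 10 and total 15, Benjamini-Hochberg adjustment over all rows tested), and again without the filter, where TMM factors are computed over all rows (1.15 to 1.29 in FOG-3 and 0.738 to 0.907 in controls, against 1.47 to 1.66 and 0.593 to 0.716 with the filter). SE is approximated as the log2 fold change over the square root of F. Pooled folds divide summed reads by summed scaled library sizes. Intervals are exact at the 95% level. The libraries are biological replicates per the design text.

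All 8 genes are named, and also the 2 tested gene IDs most correlated with the gene of most FOG-3 reads. Members and lists were chosen with earlier results of these data known. RefSeq's gene table (WBcel235) was used only for names and neighbours. None (0) of the file's IDs is in it, so a list of 33 further pathway genes and 13 markers were not analysed here. Alternatives were DESeq2 1.42.0, limma-voom (limma 3.58.1), other scalings and filters, thinning, and leaving out libraries.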

Additional observations from a re-analysis of the deposited data

Results flagged for a closer look

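In 4 of 13 groups of 4 values tested, all of them controls, 1 library stood apart from the others by Dixon's test, which flags about 1 in 20 groups of continuous values by chance. That rate does not apply here, since 3 of the 4 groups held reads in 1 library only, which fixes the outcome. Control TTAA had 112.6 CPM of hrde-1, from 1 read. Control TTGT had 55.9 CPM of prg-1 from 3 reads, 37.3 CPM of ego-1 from 2 reads and 18.6 CPM of drh-3 from 1 read, while the other controls had 0. TTGT held 53.8% of all control reads.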

How the results depend on the processing

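The 2 higher calls with the default filter, hrde-1 and csr-1, which passed it only through their FOG-3 reads, became 5 with no filter and 5 with 1 CPM in 4 libraries, 1 (hrde-1) at an adjusted p under 0.01, and 0 after thinning to equal depth, where neither gene passed the filter. Without 1 library they were 2 to 3, prg-1 being the gene added. The alternatives to the fit without the filter were added after the data were seen, as were the pooled folds, the pair of equal totals and the expected control reads. The 5 higher calls without the filter became 3 with DESeq2 and 3 with limma-voom, where 1240 and 1105 of 12240 gene IDs were called higher. They became 3 at an adjusted p under 0.01 (617 of 12240) and 1 (hrde-1) after thinning (350 of 7082). Without 1 library they were 2 to 5, where 704 to 988 gene IDs were called higher, of 10616 to 12223 tested. Over all gene IDs, 401 higher calls (244 lower) with the default filter became 706 (6 lower) with the most abundant gene ID as the scale and 596 (84 lower) with total counts. They became 347 of 886 at an adjusted p under 0.01, 1172 of 5258 with 1 CPM in 4 libraries, 948 of 12240 with no filter and 30 of 103 after thinning. Without 1 library there were 393 to 577. The filter settings, thinning and leaving out a library also changed how many gene IDs were tested. The cause was otherwise not tested. The log2 fold change of ego-1, 0.039 without the filter, was -0.73 with limma-voom, -0.089 with 1 CPM in 4 libraries and -0.38 to 3.77 without 1 library. With limma-voom, that of wago-1 was -0.065 and that of drh-3 -0.84. Upper-quartile scaling without the filter could not be fitted. The share of the 8 genes was 0.108 percentage points higher in FOG-3, 0.167 without the 10 most abundant gene IDs in the total, and 0.103 to 0.115 without 1 library. No paired analysis was possible because the columns carry no replicate number. At their FOG-3 level wago-1, ego-1 and drh-3 would have only 1.78, 1.37 and 1.23 control reads under TMM. Whether control depth, low recovery or the absence of a difference kept these genes from being called was not tested.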
